A study of Oryctolagus cuniculus with 24 samples.

Results

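Interleukin 34 (IL34), colony stimulating factor 1 (CSF1) and their shared receptor CSF1R were followed in rabbit peripheral blood mononuclear cells (PBMCs). The 3 genes were chosen as a ligand and receptor group, by name, among 28893 genes that the array measured. PBMCs, the lymphocytes and monocytes of blood, came from 4 animals, adult females of the New Zealand White breed, which carry the numbers 1, 2, 4 and 5. Cells of each rabbit were cultured for 4 hours (T4) or 24 hours (T24) with buffer alone (mock), with lipopolysaccharide (LPS, a component of the bacterial wall) at 1 µg/mL, or with phorbol 12-myristate 13-acetate (PMA) at 10 ng/mL together with ionomycin at 1 µg/mL (PMA-Ionomycin). PMA activates protein kinase C and ionomycin lets calcium into cells, a combination that stimulates T lymphocytes without their receptor. Each of the 6 groups held 4 arrays, 1 per rabbit, so that each rabbit was present in every group.

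CSF1R is a receptor tyrosine kinase of monocytes and macrophages that keeps these cells alive and drives their maturation. CSF1 and IL34 have little sequence in common but bind the same receptor, and loss of either ligand affects different macrophage populations of the body. Monocytes of blood carry CSF1R, and the transcription factor PU.1, encoded by SPI1, is required for its expression.

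Each of the 3 genes was measured by a single probe of 60 bases, and the probes are shown because every value below rests on them. The IL34 and CSF1 probes belong to the immune genes that the study added to the array. The sequences below run 5′ to 3′.
IL34: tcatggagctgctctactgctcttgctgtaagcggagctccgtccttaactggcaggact
CSF1: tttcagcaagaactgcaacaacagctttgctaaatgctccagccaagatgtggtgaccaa
CSF1R: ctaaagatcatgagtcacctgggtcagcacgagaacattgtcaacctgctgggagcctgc
The CSF1R probe lies on chr3:31840703-31840762 of oryCun2, on the minus strand, and the deposited files give no exon for it. The files give no position for the IL34 and CSF1 probes. Of the 60 bases, 33 are G or C in the IL34 probe, 27 in the CSF1 probe and 32 in the CSF1R probe, and none of them shares a run of 16 or more bases with another probe of the array on either strand. The IL34 and CSF1 probes were spotted 3 times on each array and the CSF1R probe once. Between the 3 spots of an array the log2 signals had a median SD of 0.1 for IL34 and 0.15 for CSF1, so that spot noise was small for both ligands and could not be measured for the receptor.

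Levels are given as the log2 of the spot intensity relative to the median spot of the array, so that a level of 0 is the median spot and a step of 1 is a doubling. The scanner calls a spot well above background by its own test, and a gene that is not so called on an array has no reliable level there; a gene with several probes was counted as above background where most of its probes were. Between 51.4% and 62.3% of the spots of an array were well above background. The array of rabbit 2 after PMA-Ionomycin at T4 stood apart, with 52.6% against 59.0% or more in the other rabbits, and without it no call of the 3 genes changed. The lowest share was that of rabbit 4 after LPS at T4, with 51.4% against 55.8% or more in the other rabbits. That array was not left out alone. Of the blood cell markers, at T24 all 12 measured monocyte markers and all 7 measured B cell markers were well above background on all 4 mock arrays. Of the 8 T cell markers 5 were, while CD4 and CD28 were well above background on no mock array, and the CD3 chains were not found by name. Of 6 neutrophil markers, 5 were well above background on all mock arrays of T24, although neutrophils are not mononuclear cells. A gene was called differentially expressed (DE) at an adjusted p under 0.05 by limma, adjusted over 28777 genes.

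The PMA-Ionomycin stimulation raised both ligands and lowered the receptor at T24. IL34 was 11.7 times and CSF1 4.0 times the mock level, and CSF1R was 9.78-fold lower. At T4, CSF1 was already up-regulated 7.63-fold and CSF1R was down-regulated 2.73-fold, whereas IL34 was near the background. After LPS, the receptor alone was DE, at T4, with a 2.72-fold lower level, a call that was lost in 9 of 16 alternatives. None of the 3 genes was DE after LPS at T24, where both ligands became DE without rabbit 5. For scale, 33.7% of all genes tested were DE after PMA-Ionomycin at T24 (22.2% higher and 11.5% lower) and 22.8% at T4 (13.5% higher and 9.36% lower). This excess of higher genes turned with the background-corrected signal of the scanner software, which was also rescaled between arrays. That signal gave 3289 higher and 3705 lower at T4 and 4673 higher and 5413 lower at T24. A model-based background correction followed by quantile normalization did not turn the excess. It gave 3698 higher and 3620 lower at T4, and 4927 higher and 4372 lower at T24. The parts of background correction and of scaling in the turn were not tested. After LPS 1.03% were DE at T4 (0.0556% higher and 0.973% lower) and 1.22% at T24 (0.639% higher and 0.584% lower). The LPS counts changed when any animal was left out. At T4 the 16 higher and 280 lower genes became 0 and 0 without rabbit 2 and also without rabbit 4. They became 9 and 110 without rabbit 1, 13 and 88 without rabbit 5, and 2 and 10 with the background-corrected signal. At T24 the 184 higher and 168 lower became 147 and 101 without rabbit 1 and 50 and 59 without rabbit 2. They became 49 and 36 without rabbit 4, and 236 and 374 without rabbit 5. Leaving out an animal also lowers the number of arrays, and the part of each was not tested.

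**Figure D1:**
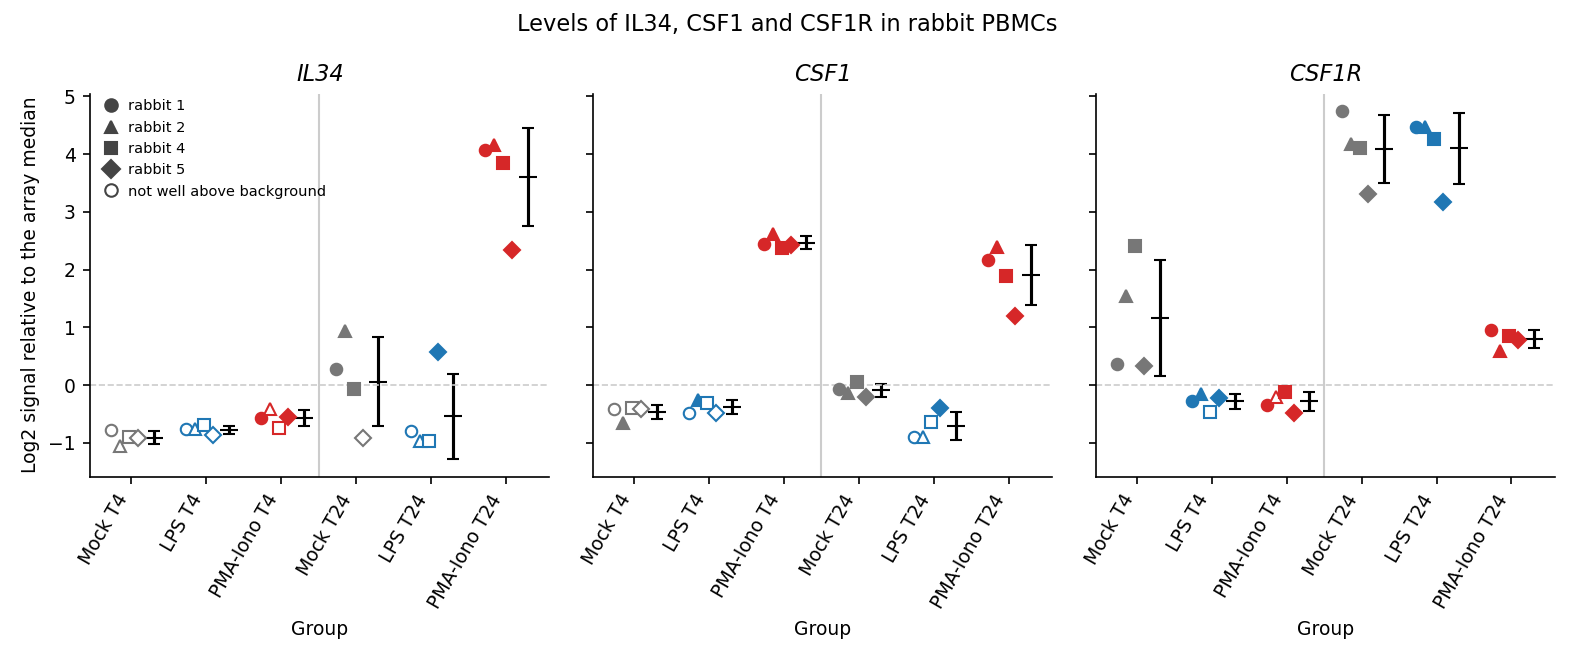
Log2 signal relative to the array median (vertical axis) of IL34, CSF1 and CSF1R in the 6 groups (horizontal axis), with 1 symbol per rabbit, open where the gene was not well above background, and the mean and SD of 4 rabbits in black. IL34 rose above the other groups after PMA-Ionomycin at T24 alone, CSF1 did so at both times, and CSF1R was high at T24 in mock and LPS samples; levels are comparable within a panel and not between panels.

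IL34, the ligand that keeps microglia and Langerhans cells alive, was close to undetectable in most cultures. In mock-stimulated PBMCs at T4 its levels were -0.78, -1.06, -0.89 and -0.92 in rabbits 1, 2, 4 and 5, and after LPS at T4 they were -0.76, -0.75, -0.69 and -0.86. None of these 8 arrays was well above background. After PMA-Ionomycin at T4 the levels were -0.57, -0.41, -0.74 and -0.55, and the arrays of rabbits 1 and 5 were well above background. The difference from mock at T4 was 0.34 on the log2 scale (SE 0.36, adjusted p = 0.654), but 6 of these 8 arrays were not well above background, so that its sign and size were not measured.

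At T24 the IL34 levels after PMA-Ionomycin were 4.08, 4.16, 3.85 and 2.34 in rabbits 1, 2, 4 and 5, with spot intensities of 432 to 1600. All 4 lay above every other array of the series. Mock samples of T24 had 0.28, 0.93, -0.07 and -0.91, and LPS samples had -0.80, -0.96, -0.96 and 0.57. The rise over mock was 3.55 on the log2 scale (SE 0.36, adjusted p = 3.44e-08), and the single animals gave 3.80, 3.23, 3.92 and 3.25. Rabbit 5 had the lowest level both after PMA-Ionomycin and in mock. Its mock array was not well above background, so that its difference (3.25) has an unmeasured side.

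IL34 also rose with time under PMA-Ionomycin. Its level, measured above background on 2 of 4 arrays at T4, rose by 4.17 on the log2 scale from T4 to T24 (18.0-fold, SE 0.36, adjusted p = 3.24e-09), in a comparison in which 33.8% of genes were DE (20.4% higher and 13.4% lower). The interaction of stimulation and time, which asks whether the difference from mock changed between T4 and T24, was 3.20 (SE 0.51, adjusted p = 5.15e-05), with 22.6% of all genes DE in that test (14.4% positive and 8.18% negative). Because no mock array of T4 was well above background for IL34, the T4 difference in it was not measured on both sides, and the size of the interaction is a fitted value (2.59 to 3.41 over the alternatives). Against LPS, PMA-Ionomycin gave a level higher by 4.14 at T24 (SE 0.36, adjusted p = 2.53e-09, with 36.2% of all genes DE, 23.7% higher and 12.5% lower) and by 0.20 at T4 (adjusted p = 0.772). After LPS, IL34 was well above background in rabbit 5 alone at T24 and on no array at T4, so that both are fitted values. Among slides, the arrays of a slide gave differences between PMA-Ionomycin and mock at T24 of 2.16 to 4.57. On each slide these groups came from different rabbits, so that rabbit and slide are mixed in this range.

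In mock cultures IL34 was well above background on 3 of 4 arrays at T24 and on none at T4, and the fitted log2 difference of 0.97 did not pass the test (SE 0.36, adjusted p = 0.0922). In rabbit 5 neither array was well above background. The call was gained in 4 of 15 alternatives, among them quantile normalization (1.03, adjusted p = 0.0449) and leaving out rabbit 5 (1.29, adjusted p = 0.000114). With the signal corrected for background by the scanner software, which spreads out dim values, the difference was 2.84 on the log2 scale and passed the threshold (adjusted p = 0.013). LPS-stimulated PBMCs at T24 had a log2 difference of -0.59 from mock (SE 0.36, adjusted p = 0.624). IL34 was well above background in mock alone in rabbits 1, 2 and 4, and after LPS alone in rabbit 5, so that each animal had 1 unmeasured side. Without rabbit 5 the fitted difference of -1.29 passed the threshold (adjusted p = 9e-04), with no LPS array of T24 well above background, so that 1 animal decided this call.

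CSF1, the growth factor that gives monocytes and macrophages their main survival signal, responded to PMA-Ionomycin within the first hours. At T4 its levels after PMA-Ionomycin were 2.45, 2.62, 2.37 and 2.42 in rabbits 1, 2, 4 and 5. In mock-stimulated PBMCs at T4 they were -0.42, -0.65, -0.40 and -0.41, and rabbit 2 alone was well above background there. The rise was 2.93 on the log2 scale (SE 0.17, adjusted p = 2.09e-11), and the single animals gave 2.87, 3.27, 2.77 and 2.82. The SD of the stimulated levels was 0.11.

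At T24 CSF1 was still up-regulated. Its levels after PMA-Ionomycin were 2.16, 2.40, 1.89 and 1.20, and those of mock samples were -0.07, -0.14, 0.06 and -0.20, all 8 arrays being well above background. The difference was 2 on the log2 scale (SE 0.17, adjusted p = 2.6e-09). It was smaller than at T4 in 4 of 4 rabbits, and the interaction of stimulation and time was -0.93 (SE 0.25, adjusted p = 0.00692). The fall of the level from T4 to T24 under PMA-Ionomycin was 0.55 on the log2 scale in size (adjusted p = 0.0159), and it lost its call without rabbit 4 and without rabbit 5, where the log2 difference was -0.58 (adjusted p = 0.0805) and -0.33 (adjusted p = 0.092). The interaction lost its call without rabbit 4, at the same value (adjusted p = 0.0628).

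LPS left CSF1 without a DE call at either time. At T4 the LPS levels of -0.48, -0.25, -0.30 and -0.48 overlapped those of mock (log2 difference 0.09, 95% interval -0.27 to 0.45, adjusted p = 0.844). Rabbit 2 alone was well above background in both groups, so that the difference was not measured in the other rabbits. At T24 they were -0.90, -0.89, -0.64 and -0.39, all below the 4 mock arrays, and rabbit 5 alone was well above background. The log2 difference at T24 was -0.62 (SE 0.17, adjusted p = 0.0921). It passed the threshold without rabbit 5 (-0.76, adjusted p = 0.00722) and with the background-corrected signal (-1.94, adjusted p = 0.0128). The direct comparison of both stimulations gave a CSF1 level higher by 2.84 after PMA-Ionomycin at T4 (SE 0.17, adjusted p = 3.46e-11, with 26.8% of all genes DE, 17.7% higher and 9.06% lower) and by 2.62 at T24 (SE 0.17, adjusted p = 3.58e-11).

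**Figure D2:**
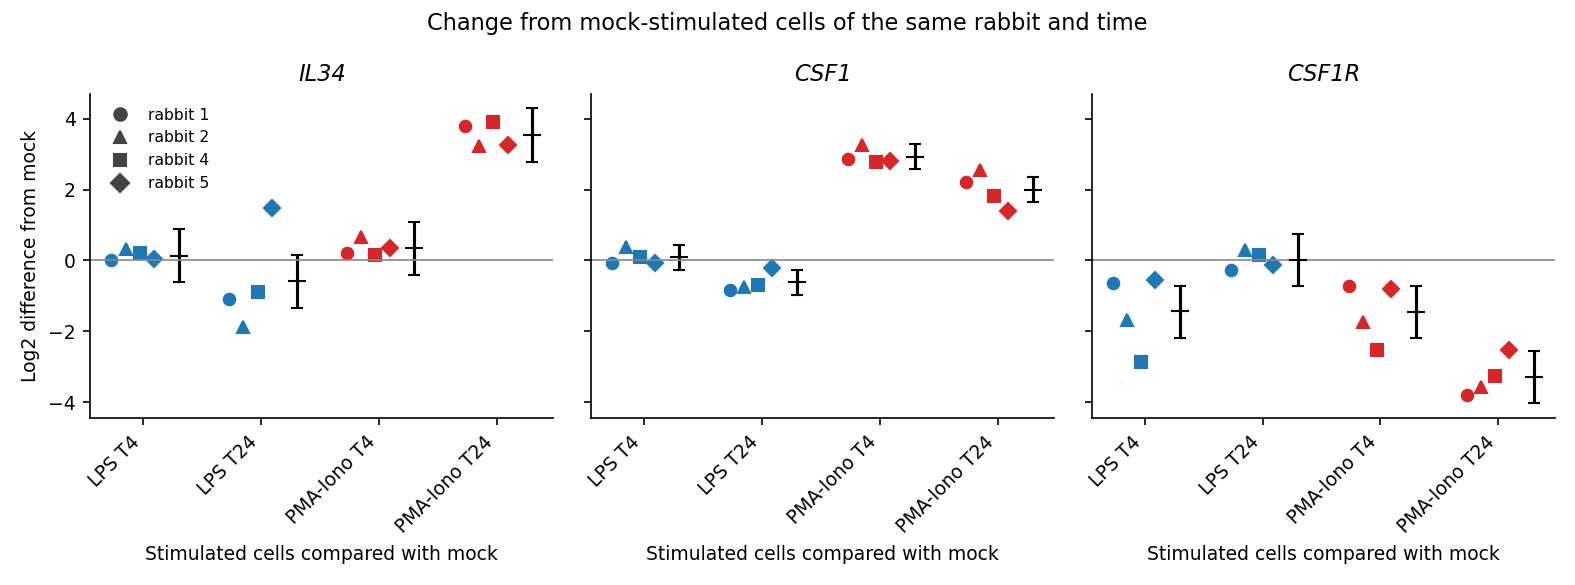
Log2 difference from the mock sample of the same rabbit and time (vertical axis) for each stimulation and time (horizontal axis), with 1 symbol per rabbit and the limma estimate with its 95% interval in black. After PMA-Ionomycin IL34 rose at T24 by 3.23 to 3.92 in the 4 rabbits, CSF1 rose at both times, and CSF1R lay below mock at both times. The IL34 differences after LPS and after PMA-Ionomycin at T4 have at least 1 side that was not well above background in each rabbit. So has that of rabbit 5 after PMA-Ionomycin at T24.

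CSF1R, the receptor of both ligands, moved with time in culture as well as with stimulation. In mock-stimulated PBMCs at T4 its levels were 0.37, 1.55, 2.41 and 0.33 in rabbits 1, 2, 4 and 5, which is a wide spread (SD 1.00). At T24 they were 4.75, 4.18, 4.11 and 3.31, with spot intensities of 1020 to 2420. The rise in mock cultures was 2.92 on the log2 scale (7.59-fold, SE 0.35, adjusted p = 3e-06), in a comparison where 12.6% of all genes were DE (7.43% higher and 5.15% lower). In LPS cultures the level rose from -0.28, -0.15, -0.46 and -0.23 at T4 to 4.48, 4.47, 4.27 and 3.18 at T24, with rabbit 4 not well above background at T4. That rise was 4.38 on the log2 scale (20.8-fold, SE 0.35, adjusted p = 6.1e-09, with 37.6% of all genes DE, 16.7% higher and 20.9% lower), and it ranked 27 among all genes tested.

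Under PMA-Ionomycin the receptor stayed low. Its levels were -0.34, -0.20, -0.11 and -0.48 at T4, where rabbit 2 was not well above background, and 0.96, 0.60, 0.85 and 0.78 at T24. At T24 all 4 arrays lay below every mock and LPS array of that time. The difference from mock was -3.29 on the log2 scale (SE 0.35, adjusted p = 7.45e-08), with -3.79 to -2.53 in the 4 rabbits, and that from LPS was -3.30 (SE 0.35, adjusted p = 5.99e-08). Because whole PBMC cultures were measured, fewer CSF1R-bearing cells and less CSF1R RNA per cell cannot be told apart. From T4 to T24 under PMA-Ionomycin the level rose by 1.08 (adjusted p = 0.0205), a call that was lost without rabbit 1 (1.01, adjusted p = 0.074) and without rabbit 2 (1.17, adjusted p = 0.0726).

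At T4 both stimulations gave a lower CSF1R level than mock, and they did not differ from each other beyond their spread (log2 difference 0.00, 95% interval -0.74 to 0.73). The log2 difference from mock was -1.45 after PMA-Ionomycin (SE 0.35, adjusted p = 0.0035) and -1.44 after LPS (SE 0.35, adjusted p = 0.0492), negative in 4 of 4 rabbits for each. The mock arrays are shared by both comparisons, and rabbits 2 and 4, with the highest mock levels, had the largest differences. The LPS array of rabbit 4 and the PMA-Ionomycin array of rabbit 2 were not well above background. The PMA-Ionomycin call was lost without rabbit 2 (-1.35, adjusted p = 0.0524) and without rabbit 4 (-1.09, adjusted p = 0.0613). The LPS call lay at the edge of the threshold. It was lost when rabbit 1 (-1.71), rabbit 2 (-1.36) or rabbit 4 (-0.97) was left out, and with 4 other scalings of the arrays.

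At T24 the CSF1R levels of LPS and mock samples overlapped, with a log2 difference of 0.01 (95% interval -0.72 to 0.75, adjusted p = 0.999). The LPS difference therefore stood at -1.44 at T4 and at 0.01 at T24, and the interaction of LPS and time did not pass the threshold (1.45, SE 0.50, adjusted p = 0.132). For PMA-Ionomycin the interaction was -1.84 (SE 0.50, adjusted p = 0.00846), the difference from mock being larger at T24 in 4 of 4 rabbits. That call was lost without rabbit 1 (-1.43, adjusted p = 0.112), without rabbit 2 (-1.85, adjusted p = 0.0651) and with the background-corrected signal (-1.40, adjusted p = 0.194).

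Ordered by mean level, IL34 was highest after PMA-Ionomycin at T24 (3.61 ± 0.85, SD, n = 4), followed by mock at T24 (0.06 ± 0.77), and no neighbouring pair below these passed the test (adjusted p of 0.624 or more). CSF1 was highest after PMA-Ionomycin at T4 (2.47 ± 0.11) and then at T24 (1.91 ± 0.52). The next level, mock at T24 (-0.09 ± 0.11), lay 2 lower, and no neighbouring pair below it passed the test. For CSF1R the LPS (4.10 ± 0.62) and mock samples (4.09 ± 0.59) of T24 shared the first place, mock at T4 (1.16 ± 1.00) was followed by PMA-Ionomycin at T24 (0.80 ± 0.15) with no call between them (adjusted p = 0.486), and the stimulated samples of T4 came last.

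Rabbit 5 held the lowest or the highest place of the 4 rabbits in nearly every T24 group. Its IL34 and CSF1 levels were the lowest in mock and after PMA-Ionomycin and the highest after LPS, and its CSF1R level was the lowest in mock and after LPS. Its mean over the 12 monocyte markers was also the lowest in all 3 groups of T24, with 3.20 in mock, 3.35 after LPS and 1.34 after PMA-Ionomycin, although rabbit 4 with 1.36 was close to it in the last. The same held at T4, with 2.75 in mock, 2.35 after LPS and 2.04 after PMA-Ionomycin. The part of the monocyte markers in these differences was not tested.

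Proteins that act with CSF1R were represented by 3 of 5 genes listed. TYROBP encodes the adaptor DAP12, through which CSF1R signals to SYK in macrophages. It fell after PMA-Ionomycin as CSF1R did, with a TYROBP log2 difference of -0.71 at T4 (SE 0.21, adjusted p = 0.0148) and -3.01 at T24 (SE 0.21, adjusted p = 7.38e-11). After LPS it fell at T4 (log2 difference -1.18, adjusted p = 0.0208), a call lost with the background-corrected signal, and at T24 it had -0.32 (adjusted p = 0.668). Syndecan 1 (SDC1), a binding partner of IL34, was 1.53-fold higher after PMA-Ionomycin at T4 (adjusted p = 0.0177) and 1.71-fold lower at T24 (adjusted p = 0.00197), the rise losing its call with the background-corrected signal and with the deposited log2 table. It was also 1.79-fold lower after LPS at T24 (adjusted p = 0.0223), a call that was lost with 3 of the 4 other scalings. PTPRZ1, another receptor of IL34, was well above background on no array of any group.

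Of 17 measured genes that carry the CSF1R signal inside the cell, 2 rose and 5 fell after PMA-Ionomycin at T4, and 2 rose and 6 fell at T24 (median log2 difference -0.33, against 0.031 over all genes). Under the 4 other scalings 1 rose and 6 or 7 fell at T4, and at T24 1 or 2 rose and 8 to 10 fell, with 10 and a median of -0.84 for the background-corrected signal. The kinase SYK fell at both times, with log2 differences of -2.29 at T4 (adjusted p = 5.6e-08) and -2.39 at T24 (adjusted p = 8.87e-09). The phosphatase gene PTPN11, which encodes SHP2, rose by 2.21 and 2.26 on the log2 scale (adjusted p = 1.46e-09 and 2.6e-10). After LPS limma called 0 of the 17 genes at either time, while 8 of them at T4 and 3 at T24 had an unadjusted p under 0.05, as had 4005 and 3122 of the 28777 genes tested. With the rabbit as a block, which pairs the arrays of an animal, 3 of the 17 were called lower at T4. SYK also serves lymphocyte receptors.

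The transcription factors of the monocyte line were lower after PMA-Ionomycin at T24, with 7 of 9 measured genes DE and none higher (median log2 difference -1.34). SPI1, which encodes PU.1, had a log2 difference of -1.30 at T4 (adjusted p = 8.73e-05) and -1.76 at T24 (SE 0.22, adjusted p = 7.6e-07). CEBPA, a factor of early myeloid cells, had -1.91 at T24 (adjusted p = 5.24e-09), and ETS1, a factor that lymphocytes also use, had -2.06 (adjusted p = 5.1e-06). At T4, 3 of the 9 genes fell and IRF8, a factor of monocytes, dendritic cells and B cells, rose 2.79-fold (adjusted p = 0.000482). MITF, which acts in osteoclasts and macrophages, fell at T4 (-1.93, with 2 of 4 stimulated arrays well above background, adjusted p = 1.23e-05).

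After LPS at T4, SPI1 (-1.13, adjusted p = 0.0252) and MITF (-1.33, adjusted p = 0.0335) were lower, as CSF1R and TYROBP were. Both calls were lost with the background-corrected signal and with normexp, a model-based background correction, and with the rabbit block 3 of the 9 factors were called lower. At T24 SPI1 had a log2 difference of 0.21 (adjusted p = 0.878), and CEBPA was lower (-0.82, adjusted p = 0.016), a call lost with the background-corrected signal. The rabbit block called 2 of the 9 factors higher and 1 lower at T24. For SPI1 the interaction of LPS and time was 1.33 (SE 0.31, adjusted p = 0.0289, with 1.95% of all genes DE in that test, 1.71% positive and 0.24% negative). Those 491 and 69 genes became 2 and 5 without rabbit 2, and 23 and 8 without rabbit 4.

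**Figure D3:**
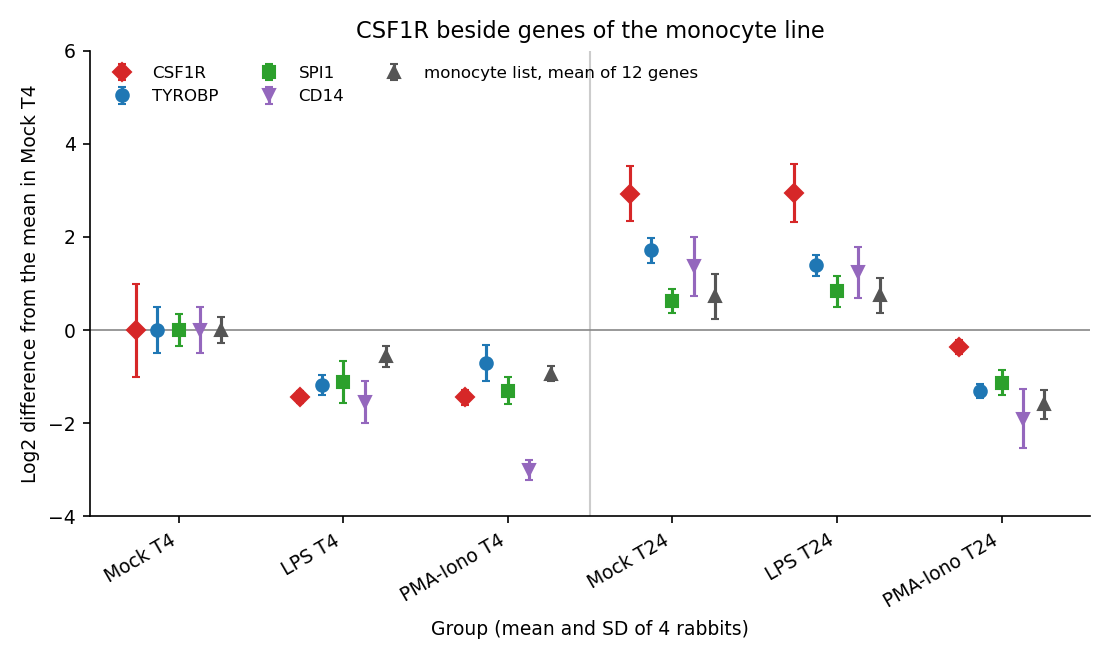
Log2 difference from the gene's own mean in mock samples at T4 (vertical axis), as the mean and SD of 4 rabbits in the 6 groups (horizontal axis), for CSF1R, TYROBP, SPI1, CD14 and the mean of the 12 monocyte markers. CSF1R rose by 2.92 in mock cultures from T4 to T24, above the changes drawn for the other genes. Single genes not drawn rose more, by up to 3.27 in the monocyte list and 3.78 in the macrophage list. After PMA-Ionomycin at T24 all 5 drawn lay below their mock level of that time.

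Monocyte markers moved in the same direction as CSF1R after PMA-Ionomycin. Of 12 measured markers, 5 fell and none rose at T4, and 9 fell and 1 rose at T24, with log2 differences from -7.14 for S100A8 to 0.85 for CD86 (median -2.14). The mean of the 12 markers was 3.20 to 4.30 in mock samples of T24 and 1.34 to 2 after PMA-Ionomycin. CD14, the LPS co-receptor of monocytes, was chosen as an example with its values known and had log2 differences of -3.01 at T4 (adjusted p = 3.29e-07) and -3.27 at T24 (adjusted p = 3.17e-08). CD86, an activation marker shared with B cells, was the marker that rose (0.85, adjusted p = 0.0301), a call lost with all 4 other scalings.

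The markers VCAN and CLEC7A were well above background on no PMA-Ionomycin array of T24. After LPS at T4 the marker mean was lower than in mock in 4 of 4 rabbits (2.89, 2.55, 2.63 and 2.35 against 3.22, 3.38, 3.33 and 2.75 in rabbits 1, 2, 4 and 5), where CD14 was the 1 gene called lower (-1.55, adjusted p = 0.0371, lost with all 4 other scalings), and at T24 the means overlapped (3.35 to 4.17 against 3.20 to 4.30), with S100A9 higher and MPEG1 and CLEC7A lower. The rabbit block called 2 markers lower at T4, and 2 higher and 3 lower at T24. In mock cultures 5 of the 12 markers rose and 1 fell from T4 to T24 (log2 differences from -0.98 to 3.27, median 0.53), and CD14 rose by 1.37 (adjusted p = 0.00662). The part of monocyte number in the CSF1R values was not tested.

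The other blood cell markers had calls in both directions after PMA-Ionomycin. At T4, 1 of 7 B cell markers rose and 3 fell (median log2 difference -0.82, with 4 or 5 falling under the 4 other scalings and the rabbit block), 1 of 8 T cell markers rose, and 1 NK cell and 1 neutrophil marker fell. At T24, of 7 B cell markers 1 rose and 2 fell, of 8 T cell markers 1 rose and 2 were called lower, of which CD4 was well above background in neither group, both NK cell markers rose, 2 of 6 platelet markers rose, 3 of 6 neutrophil markers fell and 1 of 5 erythrocyte markers fell. The rise of the T cell marker was lost with 3 of the 4 other scalings and both NK cell rises with the background-corrected signal, and 1 platelet marker rose under each of the 4 while 2 fell with the background-corrected signal and 1 with the deposited log2 table. The rabbit block called 2 T cell markers higher. Platelet markers fell in mock cultures from T4 to T24, where 5 of 6 were lower (median log2 difference -1.58), and 5 of the 6 were also lower after PMA-Ionomycin at T4. After LPS limma called 0 B cell, T cell, NK cell, platelet and erythrocyte markers at both times, and 1 neutrophil marker fell at T24, where the rabbit block also called 1 higher. At an unadjusted p under 0.05 there were 3 T cell markers, 1 platelet marker and 1 erythrocyte marker at T4. At T24 there were 2 T cell markers and 4 of the 6 neutrophil markers. Over all 28777 genes there were 4005 at T4 and 3122 at T24. The rabbit block called 1 T cell marker lower at T4.

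CSF2, which encodes the growth factor GM-CSF and was included for its relation to CSF1, rose 235-fold after PMA-Ionomycin at T4 (log2 difference 7.88, SE 0.43, adjusted p = 5.75e-12) and 60.6-fold at T24 (5.92, SE 0.43, adjusted p = 1.37e-10). TNFSF11, which encodes RANKL, the factor that acts beside CSF1 in making osteoclasts, was well above background with most of its 3 probes on 3 of 4 PMA-Ionomycin arrays at T4 and on all 4 at T24. On mock arrays none of the probes was at T4, and a single probe was on 1 array at T24. Its rise was at least 1.49-fold at T4 (adjusted p = 0.00578). At T24 the rise had a fitted log2 value of 1.23 (adjusted p = 1.39e-06), against mock arrays on which most probes were not well above background. Of 5 other growth factors measured, these were the 2 that rose at both times, and CSF3 was lower at T4 (log2 difference -1.32, adjusted p = 0.0254). CSF3, the granulocyte factor, rose 6.47-fold after LPS at T24 (adjusted p = 0.000803). Among 6 other receptors of haematopoietic growth factors measured, CSF2RB, the signalling chain of the GM-CSF receptor, fell at both times after PMA-Ionomycin (2.56-fold and 2.37-fold, adjusted p = 0.00114 and 0.0016), and IL3RA fell 4.61-fold at T24 (adjusted p = 3.16e-05). None of the 6 passed the test as higher. With the background-corrected signal 2 were called lower at T4 and 4 at T24 (median log2 difference -0.94 against -0.13), and the rabbit block called 2 lower at T4 and 1 lower after LPS at T4.

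Genes used by mature macrophages did not move one way. Of 11 measured, 2 rose after PMA-Ionomycin at T4, and 4 rose and 4 fell at T24 (median log2 difference -0.16, and -1.01 with the background-corrected signal). With 3 of the 4 other scalings 3 rose at T24. PLAU, the urokinase gene, rose 15.0-fold at T4 (adjusted p = 1.12e-05), and CCL2, which attracts monocytes, rose 7.35-fold at T4 and 5.53-fold at T24 (adjusted p = 0.000833 and 0.00216). The scavenger receptor MARCO was 7.26-fold lower at T24 (adjusted p = 0.00755), where 1 of 4 stimulated arrays was well above background, and the protease CTSK 7.93-fold lower (adjusted p = 5.05e-07). LPS raised the scavenger receptor MSR1 4.02-fold at T24 (adjusted p = 0.00786) and lowered ACP5, a phosphatase of osteoclasts and macrophages, 2.18-fold at T4 (adjusted p = 0.0389), the ACP5 call being lost with all 4 other scalings. The rabbit block called 2 of the 11 genes lower at T4, and 3 higher and 2 lower at T24.

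**Figure D4:**
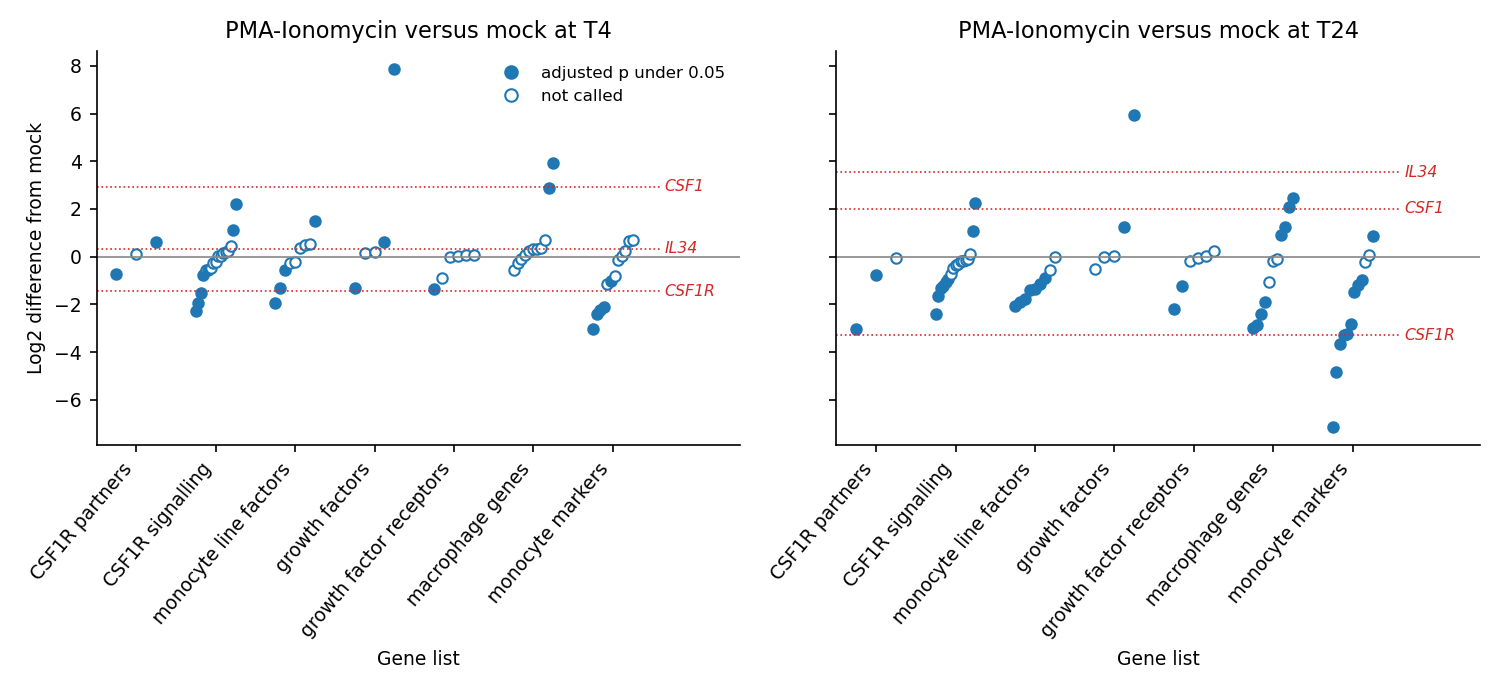
Log2 difference between PMA-Ionomycin and mock samples (vertical axis) for each measured gene of 7 lists (horizontal axis) at T4 and T24, filled where the adjusted p was under 0.05, with dotted lines at the values of IL34, CSF1 and CSF1R. Monocyte line factors and monocyte markers lie mostly below 0 at T24, and 1 growth factor gene, CSF2, lies above both CSF1 and IL34 at each time.

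The genes whose pattern was most like that of each member were ranked by Pearson's r over the 24 arrays among 6287 genes with a symbol, as a description. The 6 groups and the 4 rabbits are shared by all points. For IL34 the most alike were PDHB (a pyruvate dehydrogenase subunit, r = 0.959), ACYP1 (0.958), NDUFA6 (a subunit of respiratory complex I, 0.951) and FKBP3 (0.95). For CSF1 they were IL2, the T cell growth factor (r = 0.976), NOC3L (0.969), TAC1, the precursor of substance P (0.964), and METTL13 (0.963). For CSF1R they were TAX1BP3 (r = 0.977), GRN, the progranulin gene (0.972), PRAM1 (0.972) and ZFYVE16 (0.966). After the mean of each group was removed, r was 0.502 to 0.602 for the genes of IL34, 0.0899 to 0.346 for those of CSF1 and 0.584 to 0.746 for those of CSF1R.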

How the data were processed

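PBMCs of 4 rabbits gave 24 one-colour arrays on 3 slides. The authors deposited the output of Agilent Feature Extraction 10.7.3.1 (per the submitters' processing notes) for each array, in which the median signal is a spot intensity with no background subtraction and no scaling between arrays, so that changes of dim genes are understated. The authors also deposited a log2 table of the same signals, centred on the mean of each array (largest difference from the scanner values 5e-09).

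After the statistical methods of the study, the log2 median signal of 61657 non-control spots was centred on the array median. Outlier spots were left out, and spots were averaged per probe and probes per gene. IL34 and CSF1 were named through the study's list of added immune genes, CSF1R by its gene number, and other probes through RefSeq gene names (mOryCun1.1); 22026 of 42089 probes stayed unnamed. A mean for each of 6 groups was fitted with lmFit and eBayes (limma 3.58.1, R 4.3.3), and p-values of 28777 genes were adjusted by the Benjamini-Hochberg method at 0.05. Figures used Python 3.11.15, numpy 2.4.6, pandas 2.3.3 and matplotlib 3.10.9. Where no probe of a DE gene was well above background on any array of a group, the fold printed is a lower bound. It was taken against the higher of the gene's signal and the lowest signal well above background on each array. The number of arrays limits the precision, and p-values cover the spread between 4 rabbits with 1 culture each.

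Gene lists held 147 genes, of which 97 were found by name. The members, lists and comparisons were chosen with earlier results of these data known. From each pathway list up to 3 DE genes per comparison with the largest change and the same sign in 4 of 4 rabbits were named, with TYROBP, SPI1 and CSF2 always, and 4 genes most like each member. Marker genes and other names were chosen with their values known, and 1 gene that this rule names is not reported here.

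The alternatives tried were the deposited log2 table, quantile normalization, normexp (offset 50) before it, Agilent's processed signal at a common 75th percentile, dim probes left out, outlier spots kept, the arrays of a comparison alone, single probes, a block for the rabbit, a block for the slide, and leaving out each rabbit. Leaving out the array of rabbit 2 after PMA-Ionomycin at T4, and the processed signal with the rabbit block, were chosen after seeing the data.

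A number stands for 1 animal in every group, which pairs the samples. Correlations of the deviations from group means had a median of 0.228 within a rabbit (60 pairs of arrays) and of -0.0746 between rabbits (180 pairs). On simulated data with 200 of 28777 genes changed by 2 on the log2 scale, the fit recovered 92% to 98.5% of them over 10 comparisons, with 2.49% to 7.25% of calls false. The simulated noise was drawn independently for each gene and array, with no rabbit effect and no background floor. These rates therefore do not cover dim genes, smaller changes or comparisons in which many genes differed.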

Additional observations from a re-analysis of the deposited data

Results flagged for a closer look

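In 18 sets of 4 arrays (3 genes in 6 groups) the gap between the most distant array and its neighbour was divided by the range. In 4 sets it exceeded Dixon's 95% critical value, where chance gives about 1 in 20. IL34 after LPS at T24 was 0.57 in rabbit 5 against -0.96 to -0.80 in the other rabbits (ratio 0.895), whose arrays were not well above background. IL34 after PMA-Ionomycin at T24 was 2.34 in rabbit 5 against 3.85 to 4.16, at the edge of the critical value. CSF1R after LPS at T24 was 3.18 in rabbit 5 against 4.27 to 4.48 (ratio 0.838). CSF1 in mock at T4 was -0.65 in rabbit 2 against -0.42 to -0.40 (ratio 0.935), a range of dim values. Of these 4 arrays, 3 are of rabbit 5 at T24, and the cause was not tested.

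The fitted difference between PMA-Ionomycin and mock changed from T4 to T24 for all 3 genes by the interaction test of limma. It grew for IL34, by 3.20 (adjusted p = 5.15e-05), was smaller at T24 for CSF1, with -0.93 (adjusted p = 0.00692), and became more negative for CSF1R, with -1.84 (adjusted p = 0.00846). In mock at T4 IL34 was well above background on no array and CSF1 in rabbit 2 alone, and CSF1R was dim after PMA-Ionomycin at T4. The CSF1 call was lost without rabbit 4. The CSF1R call was lost without rabbit 1, without rabbit 2 and with the processed signal.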

How the results depend on the processing

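Of 33 comparisons of the 3 genes, 22 kept their side of the threshold under every alternative run, and no DE call reversed under any of them. Among those never called, 5 changed sign under at least 1 alternative. The 22 include the rise of IL34 after PMA-Ionomycin at T24 (2.79 to 4.44), that of CSF1 at T4 (2.54 to 4.48) and T24 (1.51 to 2.49), and the fall of CSF1R at T24 (-4.02 to -3.12). The rabbit as a block changed no call of the 3 genes (CSF1R after LPS at T4 -1.44, adjusted p = 0.0198). It raised the calls over all genes after LPS at T4 from 16 higher and 280 lower to 86 and 1141, and at T24 from 184 and 168 to 410 and 336.

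The fall of CSF1R after LPS at T4 lost its call with quantile normalization (-1.60), the processed signal (-2.50), normexp (-1.34), the deposited log2 table (-1.43), the arrays of the comparison alone (-1.44) and the slide as a block (-1.46). The rise of CSF1R under PMA-Ionomycin from T4 to T24 lost it with quantile normalization (1.00) and normexp (0.83), and the fall of CSF1 with the processed signal (-0.95) and the arrays of the comparison alone (-0.55). IL34 in mock from T4 to T24 became DE with quantile normalization (1.03) and the processed signal (2.84), and CSF1 after LPS at T24 with the processed signal (-1.94). The interaction of PMA-Ionomycin and time for CSF1R lost its call with the processed signal (-1.40). The processed signal with the rabbit block gave the same values and calls for these (-0.95, 2.84, -1.94 and -1.40). The causes were not tested.

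Leaving out a rabbit changed calls for CSF1R after LPS at T4 (-1.74 to -0.97), after PMA-Ionomycin at T4 (-1.69 to -1.09), in its rise under PMA-Ionomycin (1.01 to 1.17) and in its interaction with PMA-Ionomycin (-2.21 to -1.43); for CSF1 under PMA-Ionomycin from T4 to T24 (-0.66 to -0.33), its interaction with PMA-Ionomycin (-1.03 to -0.76), after LPS at T24 (-0.76 to -0.55) and under LPS from T4 to T24 (-0.47 to -0.23); and for IL34 after LPS at T24 (-1.29 to -0.16), in mock from T4 to T24 (0.63 to 1.29) and its interaction with LPS (-1.46 to -0.25).

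The processed signal moved the median difference of all genes to 0.218 after LPS at T4 and to -0.156 and -0.258 after PMA-Ionomycin at T4 and T24, and turned the split of all genes, from 6385 higher and 3308 lower to 4673 and 5413 at T24. It did the same for PMA-Ionomycin against LPS at T4 (5101 and 2606 to 3945 and 6140) and T24 (6814 and 3597 to 5125 and 5561) and for T24 against T4 under PMA-Ionomycin (5857 and 3856 to 4586 and 5167) and in mock (2138 and 1482 to 1695 and 1779). The split moved without turning under LPS from T4 to T24 (4796 and 6026 to 4032 and 8454) and in the interactions of PMA-Ionomycin (4148 and 2353 to 3300 and 2958) and LPS (491 and 69 to 121 and 54) with time. The low signal over background limits IL34 outside PMA-Ionomycin at T24, CSF1 in mock and LPS samples, and CSF1R in stimulated samples of T4.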
